A study of Mus musculus with 6 samples.

Results

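A set of 39 genes of the hypoxia response and of glycolysis was followed in mouse embryonic stem (mES) cells that express the transcription factor SIM2. The genes were chosen by name (gene symbol in the deposited expression table), and all 39 are among its 22602 genes. They comprise the angiogenic ligand Vegfa, 2 glucose transporters, 14 glycolytic enzymes, 2 lactate dehydrogenases, 2 kinases of pyruvate dehydrogenase, 2 PFK2/FBPase2 enzymes, 5 oxygen sensors or regulators of HIF and 11 further HIF targets. Messenger RNA was sequenced from the Sim2 expressing lines A6, B8 and C4 (1 library each) and from 3 cultures of EB3 cells (EBRTcH3, the parental mES line), named 0, 1 and 2. At its ROSA26 locus each of these clones carries mouse Sim2 with a Flag tag, followed by an IRES and the fluorescent reporter Venus, and driven by the hCMV*-1 promoter that is silent while tetracycline is present. EB3 cells have no Sim2-Flag transgene. Every culture grew on gelatin with serum and LIF, and all 6 were kept in tetracycline-free medium for 26 h before RNA was collected. Each Sim2 library is 1 culture of 1 clone and the EB3 libraries come from 1 line, so p-values measure the spread between these samples. The oxygen level and the abundance of HIF proteins were not measured here. In bulk cultures, fewer cells of a type and less RNA per cell cannot be told apart.

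Hypoxia inducible factors (HIF) are pairs of an oxygen-regulated alpha subunit and ARNT. When oxygen is present, prolyl hydroxylases of the EGLN family mark the alpha subunit, VHL recognises the mark and the subunit is degraded. When oxygen is scarce the pair binds short elements with the core RCGTG and raises glucose uptake, glycolysis, lactate production and vessel growth. SIM2 belongs to the same bHLH-PAS family and also needs ARNT as its partner, which is why the HIF targets are a point of comparison in cells that express it. Mouse ES cells are known for high glycolysis even when oxygen is plentiful.

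The libraries held 25095861 reads (A6) to 28269340 reads (C4) in genes, recovered from the steps of the deposited values, and 1 read in a cDNA of 2 kb was worth 0.0177 to 0.0199 RPKM (reads per kilobase of cDNA, scaled to the size of the library). Sim2 was at 168 to 212 RPKM in the clones and at 0.0917 to 0.130 RPKM in EB3 cells, and Arnt, the shared partner, was at 19.5 ± 1.62 RPKM in the clones and 19.8 ± 0.809 in EB3 cells (SD, n = 3 each; log2 fold change -0.02 ± 0.10 SE, limma adjusted p = 0.930). The 5 ES cell markers (Pou5f1, Sox2, Nanog, Esrrb and Zfp42) summed to 2847 to 3072 RPKM in the clones and 3014 to 3353 RPKM in EB3 cells. Markers of other lineages were low, except for a neural list whose 5 genes, mostly Tubb3, summed to 76.1 to 97.8 RPKM in the clones and 119 to 137 RPKM in EB3 cells, and their part in the results was not tested. EB3-0 stood apart from the other EB3 libraries. Over the tested members the reads of EB3-0 and EB3-1 had a mean chi-square of 449 for each gene. The mean was 3.16 between EB3-1 and EB3-2 and 35.1 to 70.2 between clones. Over all genes the mean was 78.4 between EB3-0 and EB3-1, 2.78 between EB3-1 and EB3-2 and 12.4 to 40.4 between clones. EB3-1 and EB3-2 were thus far closer to each other than any other pair within a group, although the study describes the EB3 cultures as independent. The main results keep all 6 libraries, and the calls are also given without EB3-0. Calls without EB3-0 take the EB3 spread from this close pair alone, which makes it small. With EB3-1 and EB3-2 averaged into 1 library, 0 members and 0 genes of the other lists were called.

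Promoter sequences of the members were read from RefSeq (GRCm38.p6), which gave at least 1 window of 300 bases (250 before and 50 after the start) for 36 of the 39 genes, 52 windows in all. Slc2a3, Ndrg1 and Bhlhe40 had none. The letters ACGTG and GCGTG, the 2 forms of the core bound by HIF, were searched on both strands, so that CACGT and CACGC count too, and CACGTG counts for both of its overlapping sites. ACGTG was in 26 of the 52 member windows (50%) and in 19.6% of all 32851 windows, and GCGTG was in 29 (55.8%) against 32.4%. One or the other was in 39 windows (75%) against 43.8%. The member windows were also richer in G and C (median 62.5% against 52.7%). By gene, 23 members held ACGTG, 24 held GCGTG and 5 held neither. These matches describe the letters and are not binding sites. The windows below are printed 5′ to 3′ on the strand of the gene with the core letters in capitals. Ankrd37, Pfkp and P4ha1 are members with lower values in all 3 clones, Egln3 is the prolyl hydroxylase with the highest ratio to EB3 cells, Gpi1 is a member without a core letter string that was called in 1 alternative, and Bnip3 is a further HIF target, the only one called.
Ankrd37 (chr8:45999801-46000100, minus strand): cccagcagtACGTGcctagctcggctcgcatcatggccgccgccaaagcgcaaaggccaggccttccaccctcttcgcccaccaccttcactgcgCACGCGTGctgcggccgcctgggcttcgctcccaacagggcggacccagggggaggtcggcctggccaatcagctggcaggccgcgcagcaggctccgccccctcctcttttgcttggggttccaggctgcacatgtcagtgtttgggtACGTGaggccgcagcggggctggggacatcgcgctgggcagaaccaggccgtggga
Pfkp (chr13:6648722-6649021, minus strand): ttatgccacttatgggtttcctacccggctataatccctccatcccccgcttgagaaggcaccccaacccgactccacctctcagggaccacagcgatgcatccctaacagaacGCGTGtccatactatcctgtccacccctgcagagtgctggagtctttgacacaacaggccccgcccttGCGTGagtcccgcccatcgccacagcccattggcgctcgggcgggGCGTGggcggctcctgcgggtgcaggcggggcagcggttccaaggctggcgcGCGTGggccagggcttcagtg
P4ha1 (chr10:59323046-59323345, plus strand): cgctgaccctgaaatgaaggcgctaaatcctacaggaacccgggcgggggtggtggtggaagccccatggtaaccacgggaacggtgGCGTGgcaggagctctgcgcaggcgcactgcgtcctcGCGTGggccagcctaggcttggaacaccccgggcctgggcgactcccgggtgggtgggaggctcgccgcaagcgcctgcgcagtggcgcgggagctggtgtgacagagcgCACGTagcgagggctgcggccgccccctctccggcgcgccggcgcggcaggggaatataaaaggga
Egln3 (chr12:54203825-54204124, minus strand): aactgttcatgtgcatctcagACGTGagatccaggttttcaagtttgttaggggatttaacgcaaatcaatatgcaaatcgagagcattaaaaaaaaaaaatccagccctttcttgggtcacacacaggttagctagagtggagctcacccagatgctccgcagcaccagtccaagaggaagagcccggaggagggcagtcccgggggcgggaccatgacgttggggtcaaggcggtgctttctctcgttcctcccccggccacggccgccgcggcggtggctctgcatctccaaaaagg
Gpi1 (chr7:34230287-34230586, minus strand): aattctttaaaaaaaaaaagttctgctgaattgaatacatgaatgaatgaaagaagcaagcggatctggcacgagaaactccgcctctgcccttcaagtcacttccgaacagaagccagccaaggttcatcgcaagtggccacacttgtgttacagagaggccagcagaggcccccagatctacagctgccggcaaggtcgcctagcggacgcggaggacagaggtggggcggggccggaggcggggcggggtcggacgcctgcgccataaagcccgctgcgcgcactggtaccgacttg
Bnip3 (chr7:138909457-138909756, minus strand): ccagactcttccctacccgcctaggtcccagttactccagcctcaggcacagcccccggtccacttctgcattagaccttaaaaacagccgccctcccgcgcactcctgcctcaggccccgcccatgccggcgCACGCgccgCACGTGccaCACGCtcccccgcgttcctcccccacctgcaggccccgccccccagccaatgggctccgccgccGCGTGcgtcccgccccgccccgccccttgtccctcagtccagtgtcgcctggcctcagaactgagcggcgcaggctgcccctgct
The Ankrd37 window holds 2 ACGTG and 2 GCGTG sites, of which a GCGTG pair overlaps in CACGCGTG. Pfkp has 4 GCGTG sites and 0 ACGTG sites, P4ha1 has 1 ACGTG and 2 GCGTG sites, Egln3 has 1 ACGTG site, and Bnip3 has 2 ACGTG sites, which share the palindrome CACGTG, and 3 GCGTG sites.

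After 26 h in tetracycline-free medium no tested member passed the threshold for a difference between the clones and EB3 cells. Of the 39 members, 36 had a mean of at least 1 RPKM and were tested, and 0 of the 36 differed between clones and EB3 cells at a limma adjusted p under 0.05, where 0.699% of all 11595 tested genes (81 genes) did. The study compared the same groups with edgeR and called more genes than limma did here, and its calls for the members were not compared. At an unadjusted p under 0.05 there were 9 of 36 members (25%), against 17.8% of all tested genes, and limma with voom weights on the recovered reads gave 0 called members (0.543% of all genes) and 8 at an unadjusted p under 0.05. Of the 9, 2 were higher in the clones (Bhlhe40 and Ndrg1; 8.40% of all tested genes) and 7 lower (Pfkp, Ankrd37, Pgam1, Slc2a3, P4ha1, Aldoc and Gapdh; 9.36%). The median log2 fold change was -0.11 over the tested members and -0.01 over all tested genes, and 23 of 36 members (63.9%) had a negative value, against 50.9% of all tested genes. For 23 of 36 members (63.9%) the whole 95% interval lay within 1.5-fold in either direction, about the share of all tested genes (63.2%).

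The clones and the EB3 cultures did not overlap for 12 of 36 members (33.3%), against 26.1% of all tested genes. 3 members lay above (Pfkfb4, Ndrg1 and Bhlhe40; 12.7% of all tested genes) and 9 below (Slc2a3, Pfkp, Aldoc, Tpi1, Gapdh, Pgam1, Ankrd37, P4ha1 and Mxi1; 13.4% of all tested genes). Without EB3-0, 3 members were called, where 5.99% of all tested genes (694) were: Gpi1 and Bhlhe40 were higher (2.54% of all tested genes) and Pfkp was lower (3.45%) in the clones. The EB3 spread in that fit came only from EB3-1 and EB3-2, the closest pair within a group. There were then 11 of 36 members at an unadjusted p under 0.05, against 26.6% of all tested genes, and 18 of 36 without overlap, against 49.3%. The median of the members was then -0.04. With EB3-1 and EB3-2 averaged, 0 members were called (0.0517% of all tested genes, 6 genes), 9 had an unadjusted p under 0.05 (12.1%), and the median was -0.15. After each library was corrected for GC content and cDNA length, 0 members were called (1.68% of the genes tested, 113 higher and 74 lower, where 40 and 41 were called without the correction) and the median was -0.13.

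**Figure D1:**
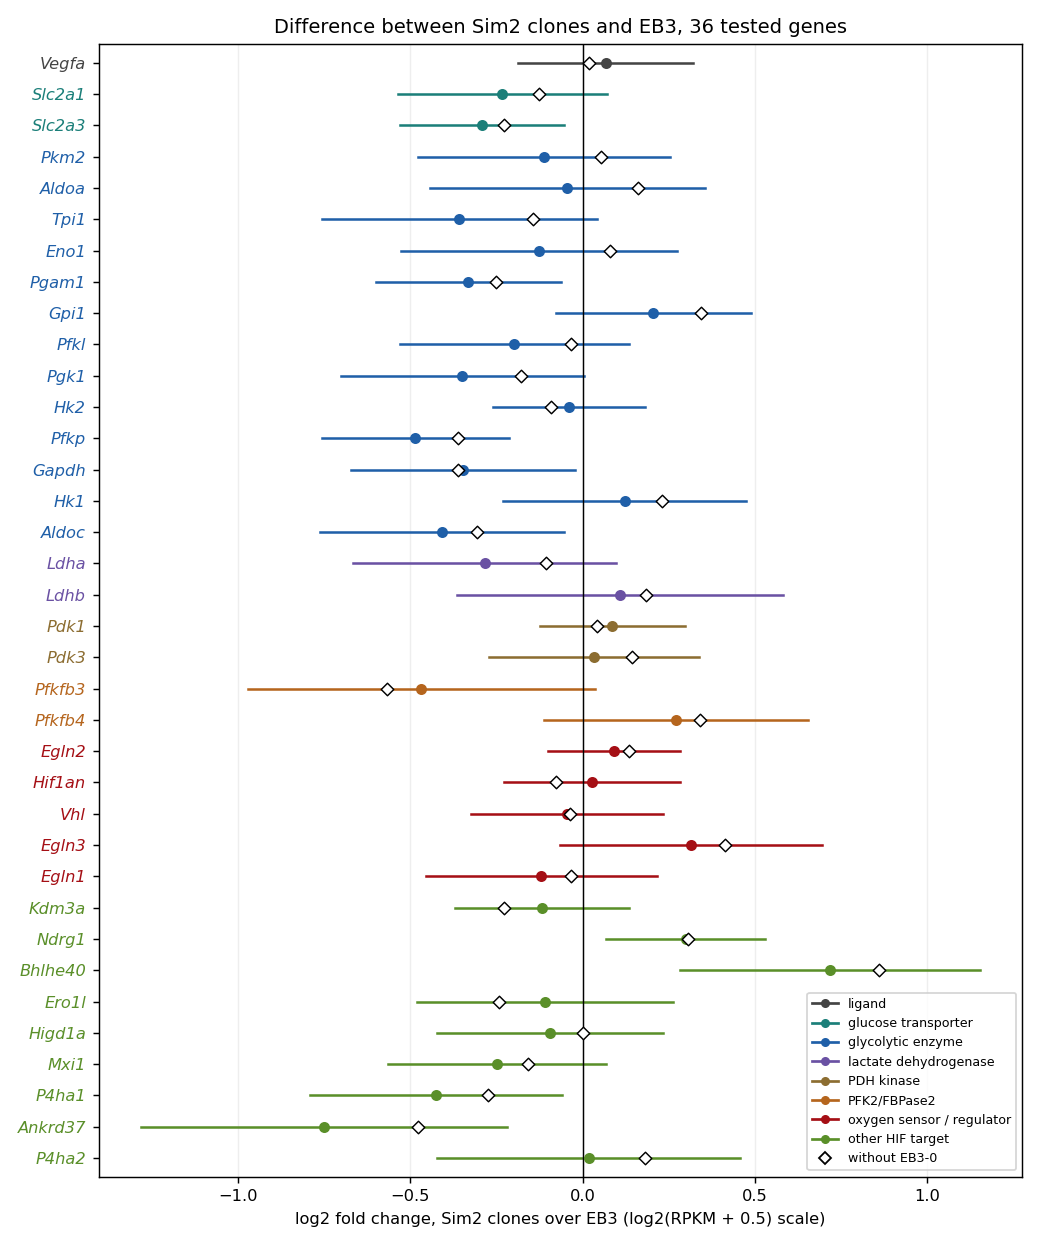
Log2 fold change of the 36 tested members, Sim2 clones over EB3 cells, on the log2(RPKM + 0.5) scale (x axis), with 95% intervals from limma as lines, coloured by role. Open diamonds give the value without EB3-0. Bhlhe40 lies furthest to the right (0.72) and Ankrd37 furthest to the left (-0.75).

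The ligand Vegfa, the growth factor that draws new vessels towards cells short of oxygen, was at 15.0, 16.7 and 13.9 RPKM in A6, B8 and C4 and at 13.5, 15.1 and 14.8 RPKM in EB3-0, EB3-1 and EB3-2. The groups overlapped, and the log2 fold change was 0.07 ± 0.11 with a 95% interval from -0.19 to 0.32 (limma adjusted p = 0.793).

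Both glucose transporters had lower means in the clones, and neither passed the test. Slc2a3, the high-affinity transporter, was at 144, 170 and 165 RPKM in A6, B8 and C4 and at 214, 185 and 188 RPKM in EB3-0, EB3-1 and EB3-2. All 3 clones lay below all EB3 cultures, and the log2 fold change was -0.29 ± 0.10 (limma adjusted p = 0.200). Slc2a1, the transporter of most cell types, was at 202, 210 and 257 RPKM in the clones and 303, 239 and 245 RPKM in EB3 cells, with C4 inside the EB3 range (-0.23 ± 0.13, limma adjusted p = 0.406, and -0.13 without EB3-0).

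**Figure D2:**
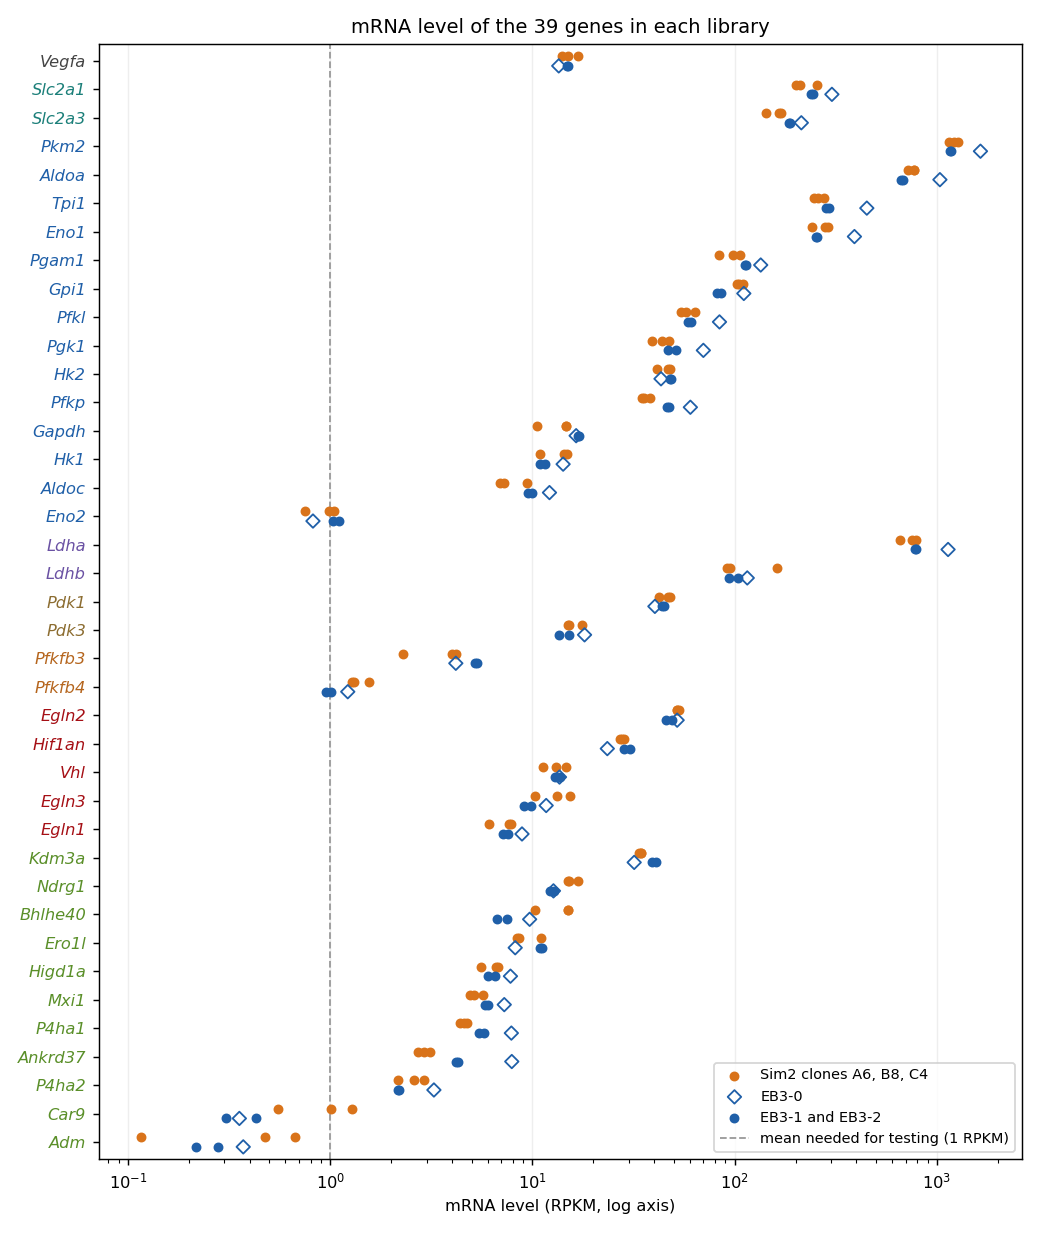
mRNA level of the 39 members in each library in RPKM (x axis, log scale), grouped by role, with Sim2 clones as orange points, EB3-1 and EB3-2 as blue points and EB3-0 as open diamonds. The dashed line marks the mean of 1 RPKM needed for testing. The levels run from 0.115 RPKM for Adm to 1643 RPKM for Pkm2 in EB3-0, and EB3-0 lies to the right of the other EB3 libraries for most glycolytic enzymes.

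The 14 glycolytic enzymes differed far more from each other than between the groups. Pkm2, the last enzyme of the pathway, and Aldoa, which splits fructose 1,6-bisphosphate, had the highest levels (1148 to 1643 and 667 to 1035 RPKM over the 6 libraries), and Eno2, the neuronal enolase, had the lowest (0.752 to 1.11 RPKM). Summed over the 14 enzymes, the level was 2929, 2775 and 3037 RPKM in A6, B8 and C4, and 4066, 2843 and 2797 RPKM in EB3-0, EB3-1 and EB3-2. EB3-0 was thus the high library, and the clones and the other EB3 cultures lay close together. Of the 13 tested enzymes 0 were called, 4 had an unadjusted p under 0.05, all with lower values in the clones (Pfkp, Pgam1, Aldoc and Gapdh), against 9.36% of all tested genes, and 11 had a negative log2 fold change (84.6%, against 50.9% of all tested genes; median -0.20). Without EB3-0, 8 of the 13 were negative and the median was -0.09.

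Pfkp, the platelet isoform of phosphofructokinase, which commits glucose to the pathway, had the smallest p-value of all members. It lies at chr13:6579120-6647970 of mm9 on the minus strand. Its level was 38.2, 35.0 and 35.5 RPKM in A6, B8 and C4 and 60.4, 46.3 and 47.1 RPKM in EB3-0, EB3-1 and EB3-2. Every clone lay below every EB3 culture, and the means were 36.2 ± 1.71 and 51.3 ± 7.91 RPKM (SD, n = 3 each). The log2 fold change was -0.49 ± 0.12 with a 95% interval from -0.76 to -0.22 (limma adjusted p = 0.101), and without EB3-0 it was -0.36 with an adjusted p of 0.0398. Pfkl, the liver isoform of the same enzyme, did not separate the groups: it was at 54.1, 57.5 and 63.4 RPKM in the clones and 84.1, 58.8 and 60.5 RPKM in EB3 cells (-0.20 ± 0.14, limma adjusted p = 0.518, and -0.03 without EB3-0). The ratio of Pfkl to Pfkp was 1.42, 1.64 and 1.79 in the clones and 1.39, 1.27 and 1.28 in EB3 cells, without overlap but at the smallest p that 3 libraries against 3 allow (exact permutation test, 2-sided p = 0.1).

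The hexokinases, which trap glucose in the cell, overlapped between the groups. Hk2 was at 41.3, 47.8 and 46.9 RPKM in the clones and 43.2, 47.8 and 48.7 RPKM in EB3 cells, with a log2 fold change of -0.04 (95% interval -0.26 to 0.18). Hk1 was at 10.95 to 14.78 RPKM in the clones and 10.9 to 14.2 RPKM in EB3 cells (0.12 ± 0.15, limma adjusted p = 0.723), so that Hk2 exceeded Hk1 by 2.79 to 4.48 times per length of cDNA in every library.

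Gpi1, the isomerase that follows the hexokinases, was at 102, 110 and 105 RPKM in A6, B8 and C4 and at 111, 85.1 and 81.6 RPKM in EB3-0, EB3-1 and EB3-2. EB3-0 lay above the clones and the other EB3 cultures lay below them. The log2 fold change was 0.20 ± 0.12 over all libraries (limma adjusted p = 0.433) and 0.34 without EB3-0 (limma adjusted p = 0.0350). Its transcript shares 65.1% of its bases with a near-identical copy elsewhere in mm9.

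Aldoc, the brain aldolase, was at 7.23, 6.93 and 9.37 RPKM in the clones and at 12.1, 9.93 and 9.54 RPKM in EB3 cells. The groups did not overlap, C4 coming close to EB3-2, and the log2 fold change was -0.41 ± 0.15 (limma adjusted p = 0.223). Aldoa overlapped widely (767, 724 and 774 against 1035, 683 and 667 RPKM), and its log2 fold change of -0.04 became 0.16 without EB3-0 and 0.01 after quantile normalization. Tpi1, which interconverts the triose phosphates, was at 257, 248 and 278 RPKM in the clones and 450, 294 and 282 RPKM in EB3 cells, without overlap (-0.36 ± 0.17, limma adjusted p = 0.330, and -0.14 without EB3-0).

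In the lower, ATP-yielding stretch of the pathway the groups overlapped for Pgk1, Eno1 and Pkm2 and not for Gapdh and Pgam1. Pgam1, phosphoglycerate mutase, was at 97.7, 83.6 and 106 RPKM in the clones and 135, 113 and 114 RPKM in EB3 cells (-0.33 ± 0.12, limma adjusted p = 0.199). Pgk1, a phosphoglycerate kinase, was at 38.9, 43.8 and 47.4 RPKM against 70.0, 51.2 and 47.0 RPKM (-0.35 ± 0.15, limma adjusted p = 0.284, and -0.18 without EB3-0), C4 lying just above EB3-2. Eno1, the common enolase, and Pkm2 had log2 fold changes of -0.13 and -0.11 over all libraries and of 0.08 and 0.05 without EB3-0, so their direction rested on that library.

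Gapdh, the glyceraldehyde phosphate dehydrogenase often used as a reference gene, was listed at only 10.5, 14.6 and 14.6 RPKM in the clones and 16.4, 16.9 and 17.1 RPKM in EB3 cells. A6 was the lowest and the groups did not overlap (-0.35 ± 0.14, limma adjusted p = 0.255). Its transcript has 42 near-identical copies (at least 100 bases at 97% identity or more) on 15 chromosomes of mm9, which cover 94.2% of its bases. It is not stated how reads that match several places were counted, so the level of Gapdh and of the other copied members is uncertain. Members also share positions with other genes: Higd1a overlaps Gm9790 on the same strand by 7992 bases, and Pfkp and Tpi1 overlap Pitrm1 and Spsb2 on the other strand by 276 and 23 bases. The copies covered at least 10% of the transcript for 10 members: Gpi1, Tpi1, Gapdh, Pgk1, Pgam1, Eno1, Pkm2, Ldhb, Higd1a and Ero1l. Over the 26 tested members below that limit, 0 were called, where 0.699% of all tested genes were. Of these members 7 had an unadjusted p under 0.05 (26.9%, against 17.8% of all tested genes), and their median log2 fold change was -0.05. Over the 10 copied members 0 were called, 2 had an unadjusted p under 0.05 (20%) and the median was -0.12.

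Lactate dehydrogenase turns pyruvate into lactate and is a classical HIF output through its A subunit. Ldha was at 754, 654 and 786 RPKM in the clones and at 1136, 791 and 781 RPKM in EB3 cells. The groups overlapped, with EB3-0 far above the rest (-0.28 ± 0.17, limma adjusted p = 0.418, and -0.11 without EB3-0). Ldhb, the subunit of oxidative tissues, was at 91.5, 161 and 95.3 RPKM against 115, 104 and 93.8 RPKM, with B8 the high library (0.11 ± 0.21, limma adjusted p = 0.825). The ratio of Ldha to Ldhb was 4.06 in B8 and 7.63 to 9.84 in the other 5 libraries.

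The enzymes that steer pyruvate and fructose 6-phosphate were not called. Pdk1 and Pdk3, kinases that switch off pyruvate dehydrogenase, had log2 fold changes of 0.09 ± 0.09 and 0.03 ± 0.13. Pfkfb4, which sets the level of the phosphofructokinase activator fructose 2,6-bisphosphate, was at 1.28, 1.56 and 1.32 RPKM in the clones and 1.22, 1.01 and 0.958 RPKM in EB3 cells (0.27 ± 0.17, limma adjusted p = 0.443). Pfkfb3, the isoform with the strongest kinase activity, pointed the other way, at 2.29, 4.18 and 3.99 RPKM against 4.18, 5.18 and 5.35 RPKM (-0.47 ± 0.22, limma adjusted p = 0.314). Pfkfb4 separated the groups by a narrow margin and Pfkfb3 touched at B8 and EB3-0. The ratio of Pfkfb3 to Pfkfb4 was 1.79, 2.68 and 3.03 in the clones and 3.42, 5.11 and 5.58 in EB3 cells (exact permutation test, 2-sided p = 0.1, the smallest possible).

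The oxygen sensing arm was expressed in every library. Over all 6 libraries 0 of its 5 genes were called (0.699% of all tested genes) or had an unadjusted p under 0.05 (17.8%), too few genes to set against these shares. Egln2 was the most abundant prolyl hydroxylase per length of cDNA (51.6 to 52.8 RPKM in the clones, 46.0 to 52.0 RPKM in EB3 cells), 5.85 to 8.52 times Egln1 in the same library. Egln3, a hydroxylase that is itself a HIF target, was at 10.3, 15.3 and 13.2 RPKM in A6, B8 and C4 and at 11.7, 9.89 and 9.03 RPKM in EB3-0, EB3-1 and EB3-2. A6 lay inside the EB3 range and B8 and C4 above it (0.31 ± 0.17, 95% interval -0.07 to 0.69, limma adjusted p = 0.372). Without EB3-0 the log2 fold change of Egln3 was 0.41 (limma unadjusted p = 0.0454, adjusted p = 0.178). Set against Egln1, the main sensor of HIF in most cells, Egln3 was 1.68, 1.95 and 1.72 times as high in the clones and 1.32, 1.30 and 1.27 times in EB3 cells, without overlap (exact permutation test, 2-sided p = 0.1). Vhl, the recognition subunit of the ligase, was at 11.3 to 14.7 RPKM in the clones and 12.9 to 13.7 RPKM in EB3 cells (-0.05, 95% interval -0.33 to 0.23), and Hif1an, the asparaginyl hydroxylase that blunts HIF activity, was at 26.97 to 28.40 and 23.5 to 30.2 RPKM (0.03, 95% interval -0.23 to 0.28).

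Bhlhe40, a bHLH repressor induced by hypoxia and by the circadian clock, had the largest positive log2 fold change of the tested members. It lies at chr6:108610623-108616919 of mm9 on the plus strand. Its level was 10.3, 15.1 and 15.0 RPKM in A6, B8 and C4 and 9.69, 6.67 and 7.51 RPKM in EB3-0, EB3-1 and EB3-2. All clones lay above all EB3 cultures, although A6 exceeded EB3-0 only slightly. The log2 fold change was 0.72 ± 0.19 with a 95% interval from 0.28 to 1.15 (limma adjusted p = 0.116), and without EB3-0 it was 0.86 (limma adjusted p = 0.0471). The gene overlaps 0610040F04Rik on the other strand by 306 bases.

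Ndrg1, a stress-responsive gene induced by hypoxia in many cell types, had little spread in either group: 16.7, 14.9 and 15.1 RPKM in the clones and 12.7, 12.2 and 12.8 RPKM in EB3 cells. The groups did not overlap, and the log2 fold change was 0.30 ± 0.10 (limma adjusted p = 0.181), nearly the same without EB3-0 (0.31, limma adjusted p = 0.0936).

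Ankrd37, an ankyrin repeat protein and HIF target, had the largest negative value. It lies at chr8:47082262-47085204 of mm9 on the minus strand, and with 904 bases its cDNA is the shortest of the set. Its level was 2.91, 2.70 and 3.13 RPKM in A6, B8 and C4 and 7.90, 4.30 and 4.20 RPKM in EB3-0, EB3-1 and EB3-2. The clones lay close together below all EB3 cultures, and EB3-0 was 1.86 times the mean of EB3-1 and EB3-2. The log2 fold change was -0.75 ± 0.23 with a 95% interval from -1.28 to -0.22 (limma adjusted p = 0.155), and it was -0.48 without EB3-0 (limma adjusted p = 0.0750) and -0.65 after the GC and length trends were removed (limma adjusted p = 0.101).

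P4ha1 and P4ha2 encode alternative catalytic subunits of the enzyme that hydroxylates collagen. P4ha1 was at 4.37, 4.74 and 4.58 RPKM in the clones and 7.87, 5.79 and 5.47 RPKM in EB3 cells, without overlap (-0.43 ± 0.16, limma adjusted p = 0.218, and -0.28 without EB3-0). P4ha2 was at 2.91, 2.58 and 2.15 RPKM and 3.26, 2.19 and 2.16 RPKM, with overlap (0.02 ± 0.19). Their ratio was 1.499, 1.84 and 2.13 in the clones and 2.42, 2.64 and 2.53 in EB3 cells (exact permutation test, 2-sided p = 0.1). With those of Pfkl to Pfkp, Pfkfb3 to Pfkfb4 and Egln3 to Egln1, it was among 4 of 12 ratios compared that did not overlap, and each had a permutation p of 0.3 after Benjamini-Hochberg adjustment over the 12.

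Of the remaining tested HIF targets, all except Mxi1 lay close to 0 over all 6 libraries. Kdm3a, a histone demethylase, Ero1l, an oxidase of the endoplasmic reticulum, and Higd1a, a mitochondrial membrane protein, had log2 fold changes of -0.12, -0.11 and -0.09, each with an adjusted p of at least 0.620 in limma. Without EB3-0 the values were -0.23 for Kdm3a (limma adjusted p = 0.0871), -0.24 for Ero1l (0.307) and 0.00055 for Higd1a. Mxi1, which competes with MYC for MAX, was lower in each clone (4.92, 5.71 and 5.16 RPKM) than in any EB3 culture (7.26, 5.82 and 6.03 RPKM), by a log2 fold change of -0.25 ± 0.14 (limma adjusted p = 0.395, and -0.16 without EB3-0).

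3 members had too low a mean to be tested. Car9, a carbonic anhydrase that is nearly silent in most cells with oxygen, was at 1.28, 0.555 and 1.01 RPKM in A6, B8 and C4 (63, 28 and 56 reads) and at 0.355, 0.305 and 0.430 RPKM in EB3-0, EB3-1 and EB3-2 (19, 16 and 22 reads). All clones lay above all EB3 cultures (exact permutation test, 2-sided p = 0.1), and in a limma fit of all genes without the filter the log2 fold change was 0.72 ± 0.22 (adjusted p = 0.304). Adm, the vasodilator peptide adrenomedullin, was at 0.115 to 0.666 RPKM (4 to 26 reads) over the 6 libraries, and Eno2 had means of 0.928 ± 0.156 and 0.988 ± 0.149 RPKM. Both overlapped between the groups.

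EB3-0 was the highest EB3 library for 26 of the 36 tested members (72.2%), against 44.9% of all tested genes, and for 13 of the 15 tested glycolytic enzymes and lactate dehydrogenases. The median log2 ratio of EB3-0 to the mean of EB3-1 and EB3-2 was 0.29 over the members, 0.41 over those 15 genes and -0.00 over all tested genes. The ratio fell with cDNA length, with a Pearson's r of -0.61 and a Spearman's rho of -0.56 over the 36 members and an r of -0.56 over all tested genes, points that share the same 3 libraries. Among genes of under 1500 bases the median ratio was 0.29 over all tested genes and 0.22 over 3 members, and at 4000 bases and over it was -0.31 and -0.16 (9 members). In the class from 1500 to under 2000 bases, where 8 members lie, it was 0.17 over all tested genes and 0.52 over the members.

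**Figure D3:**
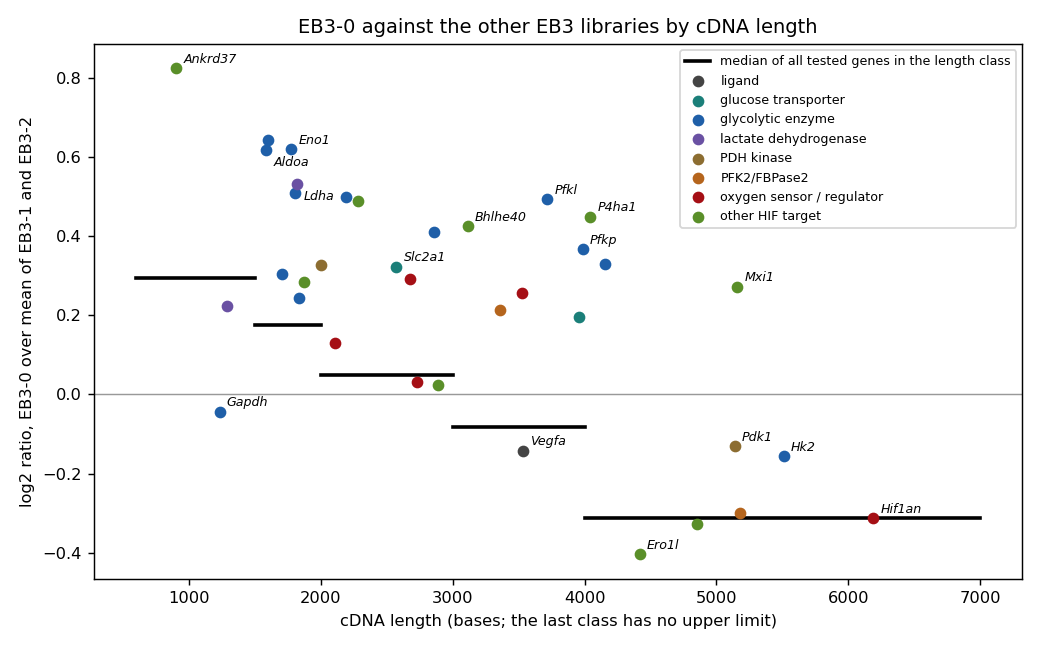
Log2 ratio of EB3-0 to the mean of EB3-1 and EB3-2 (y axis) against cDNA length in bases (x axis) for the 36 tested members, coloured by role. Black bars give the median of all tested genes in each length class. Ankrd37 lies highest, and the glycolytic enzymes other than Gapdh lie above the bar of their class.

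The median spread of the members was near that of all tested genes over the clones and larger over EB3 cells. The median SD of the log2 values was 0.13 over the clones and 0.19 over EB3 cells, against 0.14 and 0.16 for all tested genes. For EB3-1 with EB3-2 alone it was 0.036, against 0.046 for all tested genes.

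The study assigned SIM2-bound regions to their nearest genes, and 4 members are on that list: Vegfa, Egln3, Ndrg1 and Bhlhe40. They make 10.3% of the 39 members, against 8.07% of all genes in the table, and 11.1% of the 36 tested members against 10.1% of the tested genes. All 4 had a positive log2 fold change (49.1% of all tested genes; median 0.31), 0 were called, and 2 (Ndrg1 and Bhlhe40) had an unadjusted p under 0.05 (17.8% of all tested genes). The 4 tested genes on the list among the further HIF targets described next had negative values: -0.91 for Bnip3, which was called, -0.86 for Igfbp3, -0.22 for Cited2 and -0.09 for Kdm4c (the last 3 named after their values were seen). The bound regions were called in the same clones.

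A list of 40 further HIF targets was read beside the members, of which 27 were tested. 1 was called, Bnip3, and it was lower in the clones, where 0.354% of all tested genes were called lower. Bnip3, a mitochondrial receptor for the removal of mitochondria, was at 17.2, 15.7 and 18.3 RPKM in A6, B8 and C4 and at 39.2, 30.3 and 28.7 RPKM in EB3-0, EB3-1 and EB3-2. The groups stood well apart, with a log2 fold change of -0.91 ± 0.13 (limma adjusted p = 0.0334). Near-identical copies cover 94.2% of its transcript. The call was lost when any library other than EB3-0 was left out (adjusted p of 0.101 to 0.133), with EB3-1 and EB3-2 averaged (0.115), without the filter (0.122), after the GC and length trends were removed (0.0640) and without the intensity trend (0.0569), and was kept without EB3-0 (0.0176).

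Over the 27 tested targets the median log2 fold change was -0.21, 23 of 27 values were negative (85.2%, against 50.9% of all tested genes), and 10 had an unadjusted p under 0.05, all lower in the clones, against 9.36% of all tested genes. The 3 clone values lay below the 3 EB3 values for 10 of 27 (37.0%, against 13.4%) and above them for 0. The list was written with earlier results of these data known, so these shares are descriptive and are not a test of HIF targets. Without EB3-0, 5 were called, all lower, against 3.45% of all tested genes: Bnip3, Bnip3l, Slc16a3, Plod2 and Tfrc. After the GC and length trends were removed, their log2 fold changes were -0.67, -0.31, -0.89, -0.51 and -0.06 in that order. Tfrc also overlapped between the groups over all libraries (limma adjusted p = 0.508). Near-identical copies cover 39.8% of the Bnip3l transcript. After the GC and length trends were removed 2 were called lower (Slc16a3, adjusted p = 0.0238, and Trf, adjusted p = 0.0431, both limma), against 0.664% of all genes tested. Slc16a3 is the exporter of lactate from glycolytic cells. Its level was 25.5, 28.9 and 30.4 RPKM in the clones and 63.0, 42.9 and 43.8 RPKM in EB3 cells, and its log2 fold change over all libraries was -0.79 ± 0.16 (limma adjusted p = 0.0714). The 5 genes other than Bnip3 were named outside the rule for other lists, after their values were seen.

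**Figure D4:**
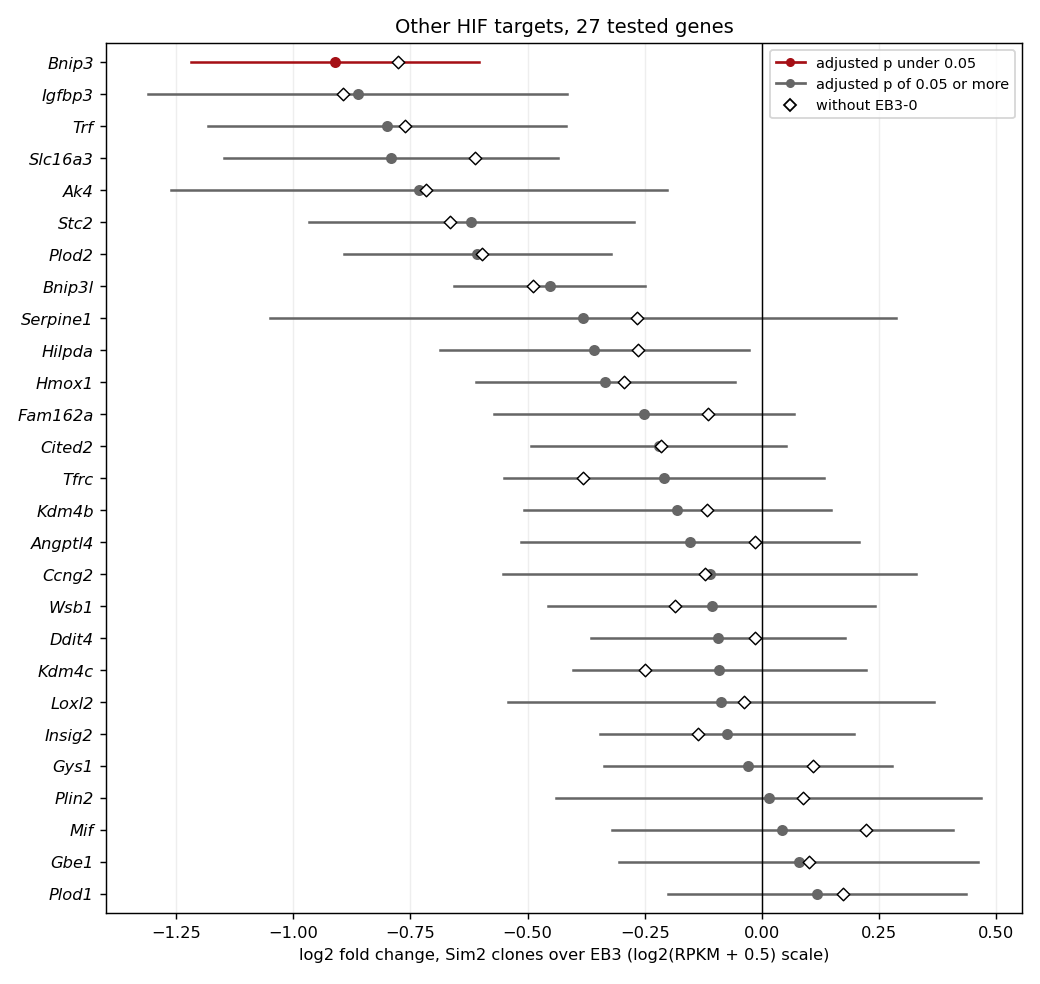
Log2 fold change of the 27 tested further HIF targets, Sim2 clones over EB3 cells, on the log2(RPKM + 0.5) scale (x axis), with 95% intervals from limma as lines. Red marks the 1 gene called, Bnip3, and open diamonds give the value without EB3-0. Of the 27 points 23 lie left of 0.

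The subunits and machinery of HIF were all tested (13 genes), and 0 were called in limma, with 4 at an unadjusted p under 0.05 (30.8%, against 17.8% of all tested genes; voom 0 called, 3 at an unadjusted p under 0.05). In each of 2 alternatives 1 gene was called, higher in the clones. Epas1 was called without EB3-0, where 2.54% of all tested genes were called higher. Rbx1, a subunit of the VHL ligase, was called after the GC and length trends were removed (0.32, limma adjusted p = 0.0453), where 1.01% were. Rbx1 was named after its values were seen. Epas1, the alpha subunit known as HIF-2α, was at 29.2, 28.5 and 29.7 RPKM in the clones and 12.3, 19.8 and 21.0 RPKM in EB3 cells (0.74 ± 0.19, limma adjusted p = 0.106). The groups stood apart and EB3-0 was the lowest library. Without EB3-0 the log2 fold change was 0.50 (limma adjusted p = 0.0236). Ep300, a coactivator, was at 34.1, 41.01 and 37.9 RPKM in the clones and 14.3, 29.4 and 30.2 RPKM in EB3 cells, with EB3-0 again the lowest (0.67 ± 0.26, limma adjusted p = 0.229, and 0.33 without EB3-0). Tceb1, elongin C of the VHL ligase, had a log2 fold change of -0.39 ± 0.10 (limma adjusted p = 0.106), which was 0.13 after the GC and length trends were removed. Hif1a, the main alpha subunit and a gene outside the naming rule, was at 33.5, 37.8 and 36.04 RPKM against 23.3, 44.8 and 41.9 RPKM, with overlap (0.02 ± 0.22). EB3-0 was the lowest library here too, and without it the log2 fold change was -0.27 (limma adjusted p = 0.0908).

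Of 18 other isoforms of glycolytic genes, 8 were tested and 0 were called in limma, with 1 at an unadjusted p under 0.05 (12.5%, against 17.8% of all tested genes), as with voom. This was Eno3, the muscle enolase, at 40.0, 42.9 and 37.1 RPKM in the clones and 33.0, 27.4 and 28.1 RPKM in EB3 cells, without overlap (0.44 ± 0.11, limma adjusted p = 0.101). It was called without EB3-0 (0.52, limma adjusted p = 0.0291), where 2.54% of all tested genes were called higher. It was also called after the GC and length trends were removed (0.43, limma adjusted p = 0.0432), where 1.01% of the genes tested were called higher. Among 13 genes of pyruvate oxidation and lactate export 0 were called in limma, and 2 had an unadjusted p under 0.05 in limma (15.4%, against 17.8% of all tested genes) and in voom. Dld, the E3 subunit of the pyruvate dehydrogenase complex, was at 36.2, 34.9 and 37.2 RPKM against 47.0, 47.6 and 47.3 RPKM (-0.39 ± 0.08, limma adjusted p = 0.0744). It was called without EB3-0 (-0.39, limma adjusted p = 0.0308), where 3.45% of all tested genes were called lower. Its log2 fold change was -0.14 after the GC and length trends were removed (limma adjusted p = 0.388). Slc16a1, a lactate and pyruvate transporter, was at 34.2, 38.6 and 36.9 RPKM against 41.7, 45.8 and 43.8 RPKM (-0.26 ± 0.09, limma adjusted p = 0.191). In both genes all clones lay below all EB3 cultures.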

How the data were processed

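Messenger RNA libraries of 3 Sim2 clones and 3 EB3 cultures were grouped by the sample labels. The authors mapped the reads to mm9 with BWA, counted coverage over the exons of RefSeq genes and deposited RPKM values, with each gene's position and cDNA length, for 22602 genes. The handling of strand and of reads with several positions is not given in the sources used here.

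Since the unit is RPKM, count models such as edgeR were not fitted, and limma with voom weights on recovered reads was run as an alternative. In each library the product of RPKM and cDNA length advanced in equal steps, 1 per read, for 100% of values (within 0.01 read), which gave the reads of each gene. More genes held 2 reads than 1 (742 against 199 in A6), which happens when the mates of 1 fragment count as separate reads, and the number of fragments is then lower.

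Genes with a mean of at least 1 RPKM over the 6 libraries were tested (11595) with limma 3.58.1 in R 4.3.3 (lmFit, eBayes with an intensity trend) on log2(RPKM + 0.5), with no covariate and with Benjamini-Hochberg adjustment over all tested genes. An adjusted p under 0.05 is called. Fold changes on this scale understate those of low genes. Single values were compared by 2-sided exact permutation tests, which cannot give a p below 0.1; 12 ratios of isoforms were compared this way.

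For GC content and for cDNA length, natural splines (5 degrees of freedom) were fitted in each library and subtracted. They were fitted to the difference between each gene's log2 value and its mean over the 6 libraries. Near-identical copies were sought in mm9 with blastn 2.17.0. Promoter windows came from RefSeq (GRCm38.p6), and no coordinates were converted between builds. The alternatives were other pseudocounts, filters, scalings, spread models and sets of libraries.

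All members may be named. From each other list the called genes are named, at most 5, or if none was called at most 3 with an unadjusted p under 0.05 and the largest log2 fold changes. A gene named outside this rule is marked as such. The members, lists and tests were chosen with earlier results of these data known.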

Additional observations from a re-analysis of the deposited data

How the results depend on the processing

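The count of called members was 0 under every alternative run other than leaving out a library (pseudocounts of 0.1 and 1, no filter, a mean of at least 5 RPKM, median centring, quantile normalization, GC and length trends removed, EB3-1 and EB3-2 averaged, no intensity trend, and the voom weights and the copy limit added after seeing the data). Leaving out 1 library gave 0 to 3, the 3 without EB3-0 (Gpi1, Pfkp and Bhlhe40). Without EB3-0 the EB3 spread came only from EB3-1 and EB3-2, the closest pair within a group. The median of the members ranged from -0.16 to -0.04 when 1 library was left out. Over all tested genes 81 were called, against 694 without EB3-0, 187 after the GC and length trends were removed, and 6 with EB3-1 and EB3-2 averaged. Of the further HIF targets 1 was called, against 5, 2 and 0 in these. No paired analysis was possible because the clones and the EB3 cultures share no replicate names. The planned count models on recovered reads were not run, since the deposited unit is RPKM.

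Of the 36 tested members, 23 kept their sign under every alternative that gave them a value, at most 16, and 13 did not. The sign turned for Hk1 (-0.0408), Hif1an (-0.132), P4ha2 (-0.0270) and Ero1l (0.00096) after the GC and length trends were removed, for Aldoa (0.0149) and P4ha2 (-0.0014) after quantile normalization, and for Pdk3 (-0.0234) and P4ha2 (-0.0645) with EB3-1 and EB3-2 averaged. Leaving out 1 library gave ranges of -0.0014 to 0.126 for Vegfa, -0.0918 to 0.0253 for Hk2, -0.155 to 0.161 for Aldoa, -0.232 to 0.0797 for Eno1, -0.199 to 0.0533 for Pkm2, -0.154 to 0.252 for Ldhb, -0.0634 to 0.143 for Pdk3, -0.134 to 0.0497 for Vhl, -0.0770 to 0.102 for Hif1an, -0.0686 to 0.179 for P4ha2, -0.168 to 0.00055 for Higd1a and -0.0757 to 0.0407 for Arnt. The cause was not tested. With 3 libraries a group, a difference under about 1.5-fold was within the 95% interval for many members, and the absence of a call does not show that a gene was equal in both groups.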

Other observations

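The pentose phosphate pathway, which branches from glycolysis and yields NADPH and ribose, had 8 genes, all tested, with 0 called in limma and 4 at an unadjusted p under 0.05 (50%, against 17.8% of all tested genes), and with 0 called and 3 at that level with voom weights. The 3 with the largest log2 fold changes of these were H6pd (0.76 ± 0.18, limma adjusted p = 0.101), Pgd (0.42 ± 0.11, adjusted p = 0.116) and Rpe (-0.33 ± 0.14, adjusted p = 0.273). Pgd, the dehydrogenase of 6-phosphogluconate, was at 152, 150 and 139 RPKM in A6, B8 and C4 and at 127, 103 and 101 RPKM in EB3-0, EB3-1 and EB3-2, and H6pd, the glucose 6-phosphate dehydrogenase of the endoplasmic reticulum, was at 8.65, 10.5 and 6.42 RPKM against 4.26, 4.88 and 5.13 RPKM. In both, every clone lay above every EB3 culture. Without EB3-0, 2 genes of the pathway were called higher in the clones (Pgd and Tkt, the latter named after its values were seen), against 2.54% of all tested genes.

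Of 7 genes of gluconeogenesis, which runs against glycolysis, 5 were tested, and 0 were called in limma or with voom weights, with 2 at an unadjusted p under 0.05 in each (40%, against 17.8% of all tested genes). Fbp1, fructose bisphosphatase, was at 3.48, 3.30 and 2.96 RPKM in the clones and 1.99, 1.07 and 1.12 RPKM in EB3 cells (1.01 ± 0.21, limma adjusted p = 0.0748, with 0.0176 without EB3-0 and 0.0274 after the GC and length trends were removed). Of all genes tested, 2.54% were called higher without EB3-0 and 1.01% after the trends were removed. Pck2, the mitochondrial carboxykinase, was at 32.7, 25.0 and 29.2 RPKM against 46.2, 34.0 and 35.3 RPKM (-0.40 ± 0.15, limma adjusted p = 0.210). Neither gene overlapped between the groups.

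Markers of other lineages were low apart from the neural list. Summed over each list, the level was 4.15 to 5.12 RPKM in the clones and 2.79 to 3.36 RPKM in EB3 cells for 6 primitive endoderm markers, 2.70 to 4.75 and 2.13 to 2.34 RPKM for 5 trophectoderm markers, 2.73 to 3.24 and 2.08 to 2.71 RPKM for 5 mesoderm markers, 10.92 to 14.05 and 10.2 to 13.4 RPKM for 6 fibroblast markers, and 76.1 to 97.8 and 119 to 137 RPKM for the 5 neural markers in the table. Tubb3 made up most of the neural sum (70.4 to 95.004 RPKM in the clones and 113 to 133 RPKM in EB3 cells) and Thy1 most of the fibroblast sum (10.6 to 13.6 and 9.85 to 13.2 RPKM). The sums did not overlap for the primitive endoderm, trophectoderm and mesoderm lists (higher in the clones) and the neural list (lower), and 0 markers were without reads in every library. These sums rest on few genes. All clones lay above all EB3 cultures for 2 of 6 primitive endoderm, 2 of 5 trophectoderm and 1 of 5 mesoderm markers, and below for 1 trophectoderm marker. The mesoderm marker was Kdr (1.38 to 1.95 against 1.04 to 1.11 RPKM), the largest part of its sum. In the trophectoderm list Krt7 ranged from 0.401 to 2.52 RPKM in the clones and overlapped with EB3 cells. In limma 0 markers of any list were called. Outside the ES cell list 3 had an unadjusted p under 0.05, against 17.8% of all tested genes. They were 1 of 1 tested primitive endoderm marker, 1 of 1 mesoderm marker and 1 of 3 neural markers. The trophectoderm and fibroblast lists had 1 tested marker each and 0 at that level. Tubb3 was called lower after the GC and length trends were removed (limma adjusted p = 0.0209), where 0.664% of the genes tested were called lower. The ES cell marker Zfp42 was called lower without EB3-0 (-0.29, limma adjusted p = 0.0350), where 3.45% of all tested genes were. The part of other cell types in the differences of the HIF targets was not tested.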
